A study of Mus musculus with 6 samples.

Results

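The data describe the messenger RNA of the proteasome in MIN6 cells, a mouse insulinoma line with many properties of pancreatic β cells, under chronic exposure to epinephrine. Members were the rows of the gene table whose symbol begins with Psma, Psmb, Psmc, Psmd, Psme, Psmf or Psmg and a number. The interferon-inducible catalytic subunits Psmb8 and Psmb9 were left out of the members. The rule took 48 of 22298 rows. Of these, 47 encode proteasome subunits, activators, an inhibitor or assembly chaperones. The remaining row, Psmc3ip, encodes a protein of meiotic recombination that carries the symbol of its binding partner, and it was kept apart from every count.

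The proteasome is the chamber in which most short-lived, misfolded and ubiquitin-tagged proteins are cut into peptides. Its barrel, the 20S core, is made of rings of α subunits, which gate the entrance, and rings of β subunits, of which Psmb5, Psmb6 and Psmb7 carry the cutting sites. The 19S cap consists of ATPases that unfold the substrate and of base and lid subunits that bind and remove ubiquitin, while the PA28 and PA200 activators open the core without ATP. In β cells, which make large amounts of proinsulin, the proteasome also receives misfolded protein exported from the endoplasmic reticulum.

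RNA was sequenced from 3 control samples and from 3 samples of cells exposed to epinephrine, a stress hormone that acts on β cells through adrenergic receptors. In the study's scheme, chronic exposure meant 3 days at 100 nM and then a withdrawal lasting 2 days. The day of RNA collection is not given in the sources used here. The line is a tumor line at passages 32 to 40, and the labels carry no other treatment or allele. The study's general statistics statement describes its data as biological replicates of independent samples, while the labels do not say whether the sequenced samples of a group were separate cultures. The p-values measure the spread between these samples. Estimated counts summed to between 15017065 and 18127171 per sample. All 12 β cell markers examined were present in all samples, the lowest at 62.7 FPKM (fragments normalized to transcript length and to library size). By edgeR, 2 of the 12 were lower under epinephrine at an adjusted p (FDR) under 0.05, beside 0.612% of all genes tested. They were Ins1 (log2 fold change -0.50, FDR = 0.0152) and Slc2a2 (-0.76, FDR = 0.00434). Higher were 0 of the 12, beside 2.02%. Without control 1, 5 were lower and 1 higher, beside 9.46% and 12.1%. The part of these markers in the results below was not tested.

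The first control sample stood apart from the other 5. On the first principal component of log2 CPM (counts normalized to the library total), which held 44.6% of the variance, the scores were -38.9 for control 1, -2.37 and -0.524 for the other controls, and 12.4 to 15.9 under epinephrine. Markers of hepatocytes separated the controls in another way. Of 20 such markers, 16 were higher in controls 2 and 3 than in each of the other 4 samples, and albumin stood at 33.9 and 82.3 CPM in controls 2 and 3 against at most 0.448 CPM elsewhere. The summed FPKM of the 20 markers was 19.5, 61.6 and 144 in controls 1 to 3 and 15.5 to 17.0 in the epinephrine samples. Markers of fibroblasts summed to 8.39 FPKM in control 1 and to at most 3.66 FPKM in the other samples. Leukocyte markers summed to 0.95 to 1.63 FPKM in controls and 2.36 to 3.49 FPKM in epinephrine samples. Of the leukocyte markers, Cd68 was higher under epinephrine (log2 fold change 2.39, FDR = 0.00906), at a CPM of at most 3.38. The other 9 leukocyte markers together summed to 0.67 to 1.17 FPKM in controls and 0.61 to 0.76 FPKM under epinephrine. The part of these differences in the results below was not tested. Values without control 1 are given for the members and lists named.

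Sequence upstream of the genes was read from RefSeq on build GRCm38.p6, which held windows of 300 bases (250 before to 50 after the annotated start) for 39 of the 47 members. Psma8, Psmb1, Psmb2, Psmb7, Psmc3, Psmd3, Psmd7 and Psmg2 had no window. The motif TGACNNNGC, searched on both strands, is the core of the antioxidant response element, to which NRF1 (the product of Nfe2l1, known as the regulator that restores proteasome gene transcription when the proteasome is blocked) can bind. It occurred in 6 of the 39 members, Psmb5, Psmb6, Psmc6, Psmd9, Psmd12 and Psme4. That was 14.3% of the 42 member windows, beside 14.2% of the 13051 windows of genes tested and 12.4% of all 32851 windows. The full form TGACTCAGC was in 0 of 42 member windows and in 0.454% of all windows. Among the other letters searched on both strands, CCGGAAG, the core bound by ETS factors, was in 14 members and 35.7% of member windows, beside 16.9% of windows of genes tested. CCAAT was in 31.0% of member windows beside 38.0%, GGGCGG in 54.8% beside 62.4%, TGACGT in 9.52% beside 11.3%, CACGTG in 9.52% beside 9.84% and TATAAA in 7.14% beside 6.90%. TGACGTCA was in 0 of 42 member windows beside 3.1%. TGACGT is contained in TGACGTCA, and the TGAC of both can overlap TGACNNNGC. A match is a description of letters and not a binding site. The 5 members with TGACNNNGC wholly before the start are shown, with the 9 matching bases in capitals (read on the other strand in Psmc6 and Psmd12).
Psmb5 (β5 subunit), chr14:54618023-54618245, minus strand: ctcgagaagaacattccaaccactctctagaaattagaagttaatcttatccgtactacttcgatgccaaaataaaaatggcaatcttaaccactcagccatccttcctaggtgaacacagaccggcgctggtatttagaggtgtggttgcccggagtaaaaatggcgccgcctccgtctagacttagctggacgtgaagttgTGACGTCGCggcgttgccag
Psmd9 (assembly chaperone), chr5:123227940-123228189, plus strand: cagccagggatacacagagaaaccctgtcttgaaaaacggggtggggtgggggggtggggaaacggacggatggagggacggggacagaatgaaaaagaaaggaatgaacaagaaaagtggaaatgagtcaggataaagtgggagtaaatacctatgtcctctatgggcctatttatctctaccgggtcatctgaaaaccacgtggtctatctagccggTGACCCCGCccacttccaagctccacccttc
Psmb6 (β1 subunit), chr11:70525107-70525356, plus strand: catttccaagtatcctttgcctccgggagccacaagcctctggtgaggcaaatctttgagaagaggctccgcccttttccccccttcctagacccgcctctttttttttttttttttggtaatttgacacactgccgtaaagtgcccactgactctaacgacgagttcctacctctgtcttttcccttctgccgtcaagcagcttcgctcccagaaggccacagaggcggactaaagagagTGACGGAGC
Psmc6 (ATPase), chr14:45329574-45329787, plus strand: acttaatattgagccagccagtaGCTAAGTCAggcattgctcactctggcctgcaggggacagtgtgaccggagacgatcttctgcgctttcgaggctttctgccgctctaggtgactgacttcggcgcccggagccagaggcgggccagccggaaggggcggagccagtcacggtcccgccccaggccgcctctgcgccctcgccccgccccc
Psmd12 (lid subunit), chr11:107479278-107479483, plus strand: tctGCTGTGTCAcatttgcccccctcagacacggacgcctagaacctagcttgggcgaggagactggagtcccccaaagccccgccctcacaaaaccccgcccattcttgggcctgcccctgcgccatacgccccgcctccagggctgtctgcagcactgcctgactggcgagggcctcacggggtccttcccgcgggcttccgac
In Psmb5 the match began 47 bases before the RefSeq start, in Psmd9 31, in Psmb6 9, in Psmc6 227 and in Psmd12 247. The stretch shown for Psmd9 lies inside the longer span that the GENCODE annotation gives this gene.

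Nearly the whole set was transcribed at a moderate to high level. Of the 47 members, 44 passed the filter on low counts. The testis-specific α subunit Psma8 and the Psme2 copy Psme2b had 0 counts in every sample, which allows up to 0.198 CPM (3 counts in epinephrine sample 3, where the TMM-scaled library size was lowest). Psmb11, the β5 variant of the thymic cortex, had 3 counts, all in epinephrine sample 3. Compared per length, in FPKM, the 14 constitutive core subunits (Psma1 to Psma7 and Psmb1 to Psmb7) were the most abundant class. Their median was 59.2 FPKM in control 1, 87.6 and 90.5 in controls 2 and 3, and 83.9 to 89.2 in the epinephrine samples. In each sample Psma2 was the lowest of the 14 (29.4 to 49.0 FPKM) and Psmb4 the highest (101 to 142 FPKM), so that subunits which assemble in equal numbers differed by 2.72 to 3.45 times at the transcript level.

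The 6 ATPases of the cap had medians of 47.3 to 55.6 FPKM, with Psmc1 highest in all 6 samples. The 11 lid and base subunits lay at medians of 46.3 to 52.3 FPKM, with Psmd11 lowest in every sample. The activators Psme1 to Psme4 had medians of 37.0 to 43.2 FPKM, with Psme4 lowest in every sample. The inhibitor and the chaperones, which are not part of the mature particle, had the lowest medians, 12.1 to 18 FPKM, and Psmg3 was the least abundant of them throughout. Control 1 had the lowest median of the 6 samples for the core, the ATPases and the chaperones, but not for the lid and base.

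**Figure D1:**
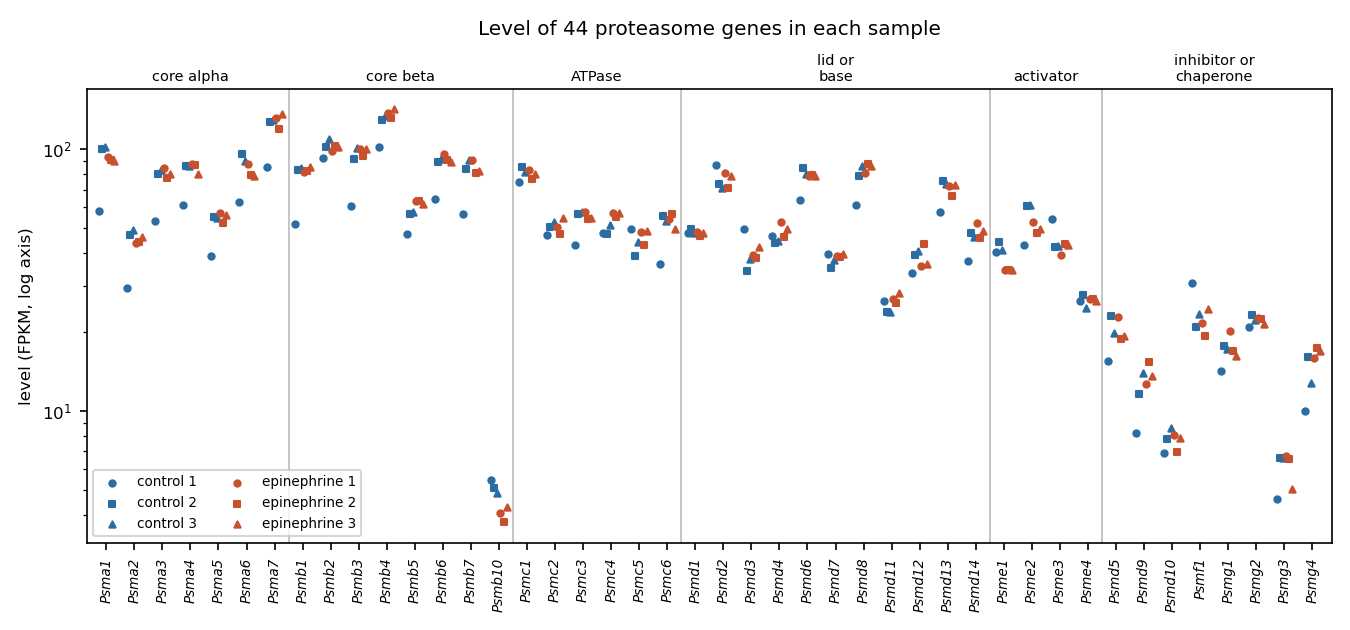
Level of each of the 44 tested proteasome genes in FPKM on a log axis, 1 point per sample, with controls in blue and epinephrine samples in red, grouped by class. By class median the constitutive core lies highest and the inhibitor and chaperones lowest, with overlap between single genes, Psmb10 lies far below the other core subunits, and control 1 (blue circle) lies below the other samples for the constitutive core.

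No member passed the test between epinephrine and control. By edgeR's quasi-likelihood test, with Benjamini-Hochberg adjustment (FDR) over all 12747 genes, 0 of 44 members were higher and 0 lower at FDR under 0.05, where 2.02% of all genes tested were higher and 0.612% lower. At an unadjusted p under 0.05, 3 members were higher (beside 9.19% of all genes) and 2 were lower (beside 7.91%). DESeq2 and limma also called 0 members. The intervals were narrow enough to bound the change. The 95% interval of the fold change excluded a 2-fold change in either direction for all 44 members, and a 1.5-fold change for 39 of them, the exceptions being Psmb1, Psmb3, Psmb10, Psmd9 and Psmg4.

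Small differences ran mostly in 1 direction. The median log2 fold change over the 44 members was 0.095, beside -0.0023 over all genes tested, and 38 members had a positive and 6 a negative value. The range was from -0.31 for Psmb10 to 0.40 for Psmg4. By class, the median was 0.14 for core α, 0.20 for core β, 0.11 for the ATPases, 0.081 for lid and base, -0.10 for the activators and 0.043 for the inhibitor and chaperones. All 14 constitutive core subunits had positive values.

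The mostly positive direction rested on control 1. Relative to the mean of the 3 controls, the members' median log2 CPM was -0.26 in control 1, 0.11 and 0.13 in controls 2 and 3, and 0.14, 0.097 and 0.12 in the epinephrine samples. Control 1 was thus the low sample, and the epinephrine samples lay close to controls 2 and 3. It was the lowest of all 6 samples for 33 of 44 members and for 14 of 14 constitutive core subunits, beside 4433 of 12742 genes in all. Against the mean of controls 2 and 3, control 1 lay lower by a median of -0.62 log2 units over the constitutive core and -0.39 over the 44 members, whereas the epinephrine samples differed by -0.0094 and -0.0047. Over all genes, this deviation of control 1 had a Spearman correlation of 0.39 with transcript length and 0.43 with GC content (12742 genes of the same libraries, a description), and the members' median transcript length was 1851 bases, beside 3476 for all genes. The members' median GC content, 49.7%, was close to the 49.6% of all genes. Within the members the correlation was 0.27 with length and 0.22 with GC content (44 genes), and within the constitutive core it was -0.72 and 0.54 (14 genes). The part of transcript length and GC content in the members' low values in control 1 was not tested.

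**Figure D2:**
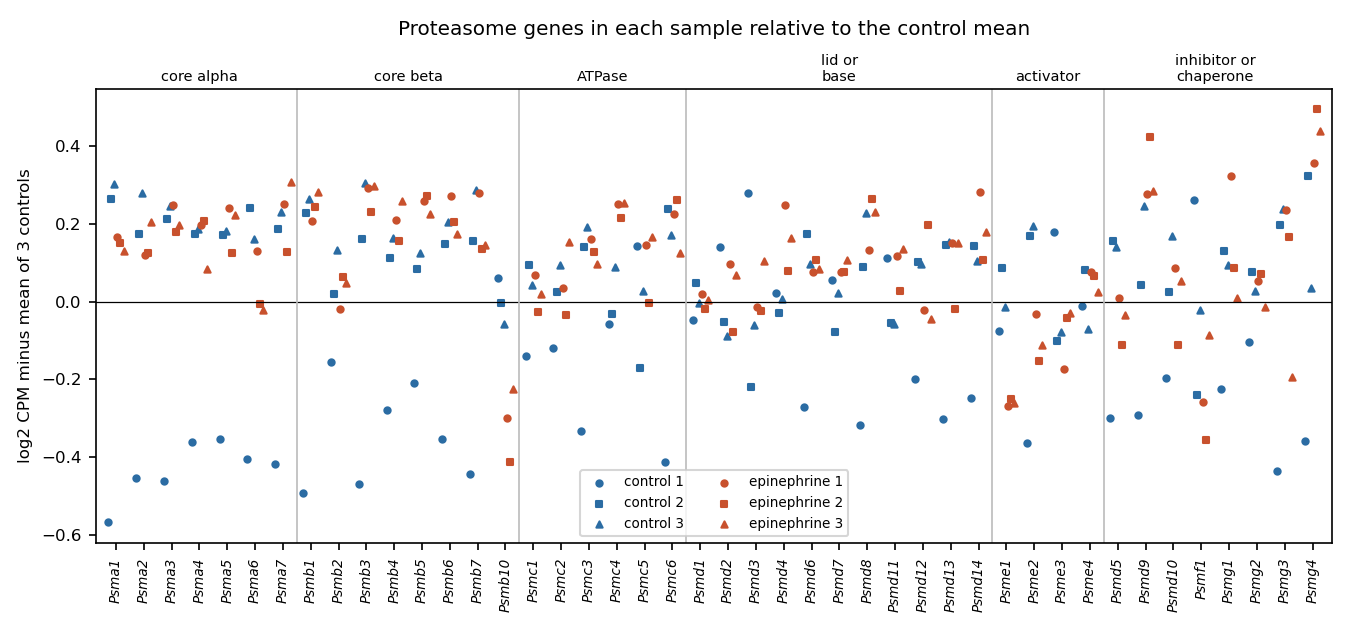
log2 CPM of each tested proteasome gene in each sample minus the mean of the 3 controls, grouped by class (blue, controls; red, epinephrine). For the constitutive core, control 1 (blue circle) lies at the bottom of every column. Controls 2 and 3 both lie above the epinephrine samples for Psma1 and Psma6 and below them for Psmb5, and overlap them in the other core columns.

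Without control 1, the members' median log2 fold change was -0.0045, with 21 positive and 23 negative values, and the median standard error fell from 0.13 to 0.060. By class, the median was -0.020 for core α, 0.019 for core β, -0.0034 for the ATPases, 0.067 for lid and base, -0.13 for the activators and -0.051 for the inhibitor and chaperones. In that fit of 5 samples, 2 members were higher at FDR under 0.05 (Psmc4 and Psmd4), where 12.1% of all 12966 genes tested were higher, and 4 were lower (Psme1, Psme2, Psmd5 and Psma6), where 9.46% were. The members' share of calls was below that of all genes in the upward direction and near it in the downward direction. The interval without control 1 excluded a 1.5-fold change for 43 of 44 members, the exception being Psmb10, whose interval reached -0.61.

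**Figure D3:**
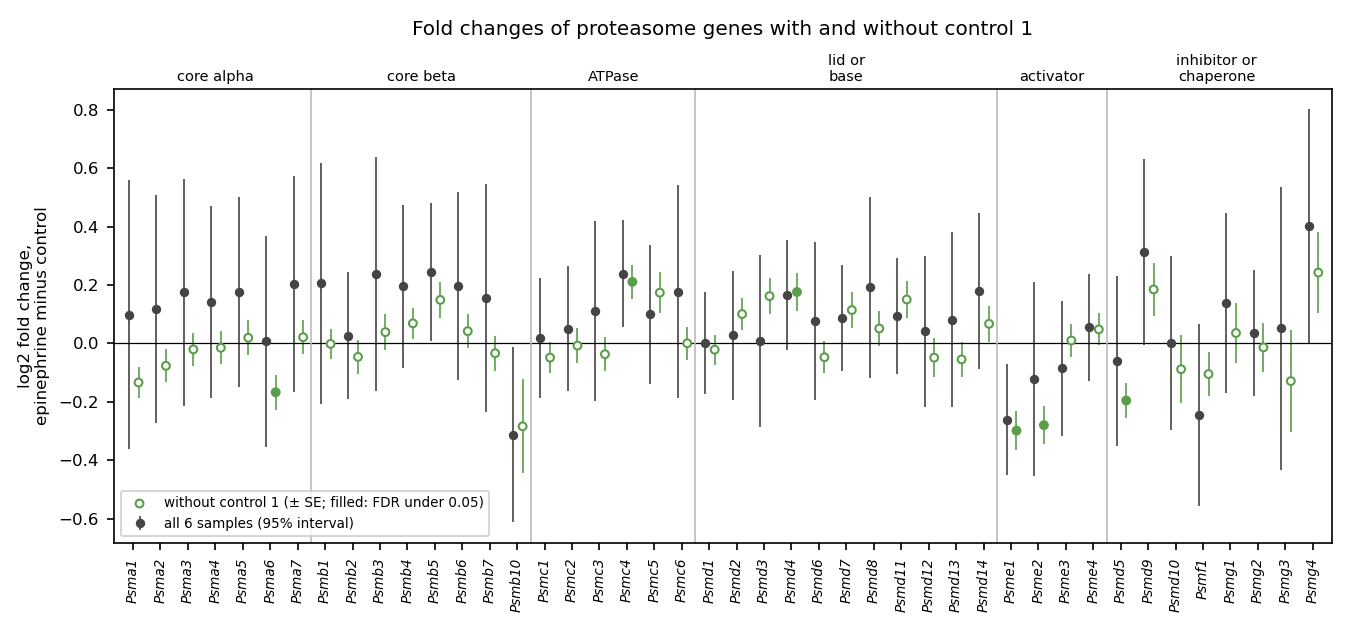
log2 fold change of each tested proteasome gene, epinephrine minus control, from all 6 samples (grey, with 95% interval) and without control 1 (green, ± SE, filled where FDR is under 0.05). Most core subunits lie above 0 in the first fit and around 0 in the second, whereas Psme1 and Psmb10 lie below 0 and Psmc4 above 0 in both.

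Among the α subunits, which form the outer rings of the core, all 7 tested values were positive and none passed the test. Psma7 had the highest fold change. Its level was 75.9, 115 and 119 CPM in the controls and 121, 111 and 125 CPM in the epinephrine samples, a log2 fold change of 0.20 ± 0.16 (SE, FDR = 0.572). With control 1 left out it was 0.021. Control 1 alone was low, and the other controls lay within the epinephrine range or close to it. Psma5 stood at 47.0, 67.7 and 68.1 CPM in controls and 71.0, 65.5 and 70.1 CPM under epinephrine (0.18 ± 0.14, FDR = 0.575; 0.019 without control 1), with the same arrangement of samples. For Psma5, 50% of its 50-base stretches are shared with other annotated loci, mostly pseudogenes, so its count depends on how shared reads were assigned.

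Psma6 had the lowest value of the class, 0.0080 ± 0.16 (FDR = 0.985). It stood at 63.6, 99.6 and 94.3 CPM in controls and 92.2, 83.9 and 83.0 CPM in epinephrine samples, so that all epinephrine samples lay between control 1 and the other controls. Without control 1 it was lower, by -0.17 ± 0.059 (FDR = 0.0439). Psma1 was arranged likewise, at 66.9, 119 and 122 CPM against 111, 110 and 109 CPM, with log2 fold changes of 0.098 and, without control 1, -0.13 (FDR = 0.844 and 0.0748). Psma2, Psma3 and Psma4 had log2 fold changes of 0.12, 0.17 and 0.14 with all samples and of -0.077, -0.020 and -0.015 without control 1.

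In the β rings, the subunit with the chymotrypsin-like cutting site had the highest value. Psmb5 (ENSMUSG00000022193, chr14:54614119-54618022 on GRCm38, minus strand) stood at 41.3, 50.6 and 52.1 CPM in the controls and at 57.2, 57.7 and 55.9 CPM in the epinephrine samples. Every epinephrine sample was above every control, with control 1 the lowest. The log2 fold change was 0.25 ± 0.10 (95% interval 0.0081 to 0.48, unadjusted p = 0.0441 by edgeR, FDR = 0.277), and 0.15 ± 0.062 without control 1 (FDR = 0.0905). The exact two-sided permutation p was 0.1, the smallest that 3 against 3 samples allow. Pseudogenes and other loci share 54.1% of the 50-base stretches of Psmb5.

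The other 6 constitutive β subunits had positive values from 0.027 (Psmb2) to 0.24 (Psmb3), with FDR between 0.457 and 0.914. Without control 1 they lay between -0.046 (Psmb2) and 0.069 (Psmb4), and Psmb3 was at 0.039. Psmb6, which carries the caspase-like site, stood at 49.9, 70.8 and 73.5 CPM against 77.1, 73.6 and 72.0 CPM. Psmb7, which carries the trypsin-like site, stood at 63.9, 96.9 and 106 CPM against 106, 95.6 and 96.1 CPM. In both, control 1 lay far below the other 5 samples, which overlapped. The log2 fold change of Psmb6 was 0.20 with all samples and 0.042 without control 1, and that of Psmb7 was 0.16 and -0.034.

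Psmb10, the inducible subunit that takes the place of Psmb7 in the immunoproteasome, had a negative fold change, while all 14 constitutive core subunits had positive values. Without control 1, 6 of these 14 were positive and 8 negative. Its level was 6.93, 6.63 and 6.38 CPM in the controls and 5.40, 4.99 and 5.69 CPM in the epinephrine samples. Each epinephrine sample was below each control, and control 1 was here the highest. The log2 fold change was -0.31 ± 0.13 (95% interval -0.61 to -0.013, unadjusted p = 0.0428 by edgeR, FDR = 0.273), and -0.28 ± 0.16 without control 1 (FDR = 0.227). Psmb10 (ENSMUSG00000031897) lies at chr8:105935735-105938444 on GRCm38, minus strand.

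Inducible subunits were then set against the constitutive subunits whose place they take, as ratios of FPKM within a sample, which no scaling between samples can change. Psmb10 amounted to 9.59%, 6.06% and 5.32% of Psmb7 in the controls and to 4.52%, 4.62% and 5.23% in the epinephrine samples. Psmb8, not a member, amounted to 9.90%, 8.19% and 10.05% of Psmb5 in controls and 6.61%, 5.92% and 6.51% under epinephrine. Psmb9, not a member, amounted to 7.54%, 6.65% and 6.73% of Psmb6 in controls and 4.42%, 4.63% and 5.30% under epinephrine. In all 3 pairs every epinephrine sample was below every control. For Psmb10 the gap between the lowest control and the highest epinephrine sample was narrow, and the mean was 6.99% ± 2.28 in controls and 4.79% ± 0.39 under epinephrine (SD, n = 3 each; exact permutation p = 0.1). With 7 ratios computed, the adjusted p of the exact permutation test was 0.175 for each of these 3. The mean of controls 2 and 3 alone was 5.69% for Psmb10, 9.12% for Psmb8 and 6.69% for Psmb9, and the epinephrine samples remained below both.

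**Figure D4:**
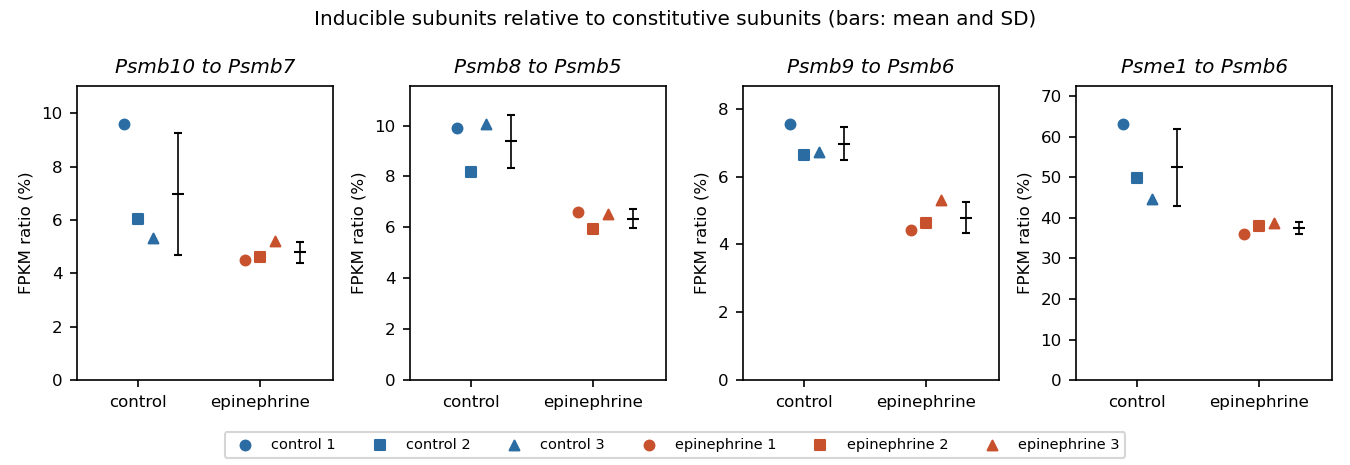
Ratio of FPKM within each sample, in percent, of Psmb10 to Psmb7, Psmb8 to Psmb5, Psmb9 to Psmb6 and Psme1 to Psmb6, with the mean and SD of each group of 3. In all 4 panels the epinephrine samples (red) lie below the controls (blue), and control 1 (blue circle) is the highest in all but the panel of Psmb8.

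The ATPases form the ring that pulls the substrate into the core, and all 6 had positive values in the fit of all samples. Psmc4 (ENSMUSG00000030603, chr7:28041707-28050101 on GRCm38, minus strand) stood at 66.7, 68.0 and 74.0 CPM in controls and 82.8, 80.7 and 82.8 CPM under epinephrine. All 3 epinephrine samples were above all 3 controls, and control 1 was close to control 2. That gave a log2 fold change of 0.24 ± 0.080 (95% interval 0.055 to 0.42, unadjusted p = 0.0167 by edgeR, FDR = 0.180). It was 0.21 ± 0.059 without control 1, where it passed the test (FDR = 0.0107).

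Psmc6 had the next smallest p of the ATPases. It stood at 76.6, 120 and 115 CPM in controls and 119, 122 and 111 CPM under epinephrine, a log2 fold change of 0.18 ± 0.16 (FDR = 0.620) that became 0.00054 without control 1. Psmc1, the most abundant ATPase per length, had the lowest value, 0.018 ± 0.090 (FDR = 0.942), at 115, 135 and 131 CPM against 133, 125 and 129 CPM. Without control 1 it was at -0.049. Psmc2, Psmc3 and Psmc5 had log2 fold changes of 0.051, 0.11 and 0.10, with overlapping groups, and of -0.0074, -0.037 and 0.17 without control 1.

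Of the lid and base subunits, 11 of 11 had values at or above 0.0016 and none passed the test. Psmd4, a ubiquitin receptor of the cap, had the smallest p. It stood at 59.7, 57.6 and 59.1 CPM in the controls and at 69.9, 62.1 and 65.9 CPM in the epinephrine samples. Every epinephrine sample was above every control, and control 1 was not apart from the other controls. The log2 fold change was 0.17 ± 0.082 (FDR = 0.351), and 0.18 ± 0.064 without control 1 (FDR = 0.0483).

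Psmd7, a structural partner of the lid deubiquitinase, stood at 61.0, 55.6 and 59.6 CPM in controls and 61.9, 61.9 and 63.2 CPM under epinephrine. Its groups did not overlap either, but the fold change was small (0.086 ± 0.079, FDR = 0.628; 0.11 without control 1). Psmd14, the deubiquitinase itself, stood at 56.1, 73.6 and 71.6 CPM against 81.0, 71.8 and 75.4 CPM (0.18 ± 0.12, FDR = 0.477). Psmd8, a lid subunit, had the highest fold change of the class, 0.19 ± 0.14 (FDR = 0.513), from 82.8, 110 and 121 CPM to 113, 124 and 121 CPM. In Psmd14 and Psmd8, control 1 lay below all other samples, and without it the values were 0.067 and 0.051.

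Psmd1, the scaffold of the base, had the value nearest to 0, 0.0016 ± 0.076 (FDR = 0.994), and stood at 144, 154 and 149 CPM against 151, 147 and 150 CPM. The other large scaffold, Psmd2, had the highest CPM of all members, at 248, 217 and 212 in controls and 241, 213 and 236 under epinephrine (0.028 ± 0.096, FDR = 0.912). Without control 1, Psmd1 was at -0.021 and Psmd2 at 0.10. For Psmd2 and Psmd3, control 1 was the highest of the 6 samples. The remaining subunits Psmd3, Psmd6, Psmd11, Psmd12 and Psmd13 had log2 fold changes from 0.0090 (Psmd3) to 0.093 (Psmd11), with overlapping groups, and from -0.055 (Psmd13) to 0.16 (Psmd3) without control 1.

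The activators were the class with a negative median. Psme1, the α subunit of PA28, a ring that is induced by interferon γ and opens the core for antigen processing, had the smallest p of all members. Its level was 43.8, 48.9 and 45.7 CPM in the controls and 38.3, 38.7 and 38.5 CPM in the epinephrine samples. All epinephrine samples lay below all controls and very close to each other. The log2 fold change was -0.26 ± 0.083 (95% interval -0.45 to -0.071, unadjusted p = 0.0128 by edgeR, FDR = 0.160). Without control 1 it was -0.30 ± 0.067 and passed the test (FDR = 0.00172). Psme1 (ENSMUSG00000022216, chr14:55578123-55581529 on GRCm38, plus strand) overlaps exons of Emc9 on the opposite strand, and whether counting used the strand is not given in the sources used here.

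Relative to the core subunit Psmb6, Psme1 amounted to 63.1%, 49.8% and 44.7% in controls and 36.0%, 38.1% and 38.7% under epinephrine. The mean ratio was 52.5% ± 9.48 in controls and 37.6% ± 1.42 under epinephrine (SD, n = 3 each; exact permutation p = 0.1, adjusted 0.175 over 7 ratios). The mean of controls 2 and 3 alone was 47.2%. Relative to Psme3, Psme1 overlapped between groups, at 74.9%, 105% and 96.2% in controls and 87.6%, 79.8% and 80.4% under epinephrine (exact permutation p = 0.4). Psme2 relative to Psme3 also overlapped, with means of 122% ± 36.9 and 120% ± 12.7 (SD, n = 3 each; exact permutation p = 1). Control 1 was the lowest sample in both of these ratios, and the epinephrine samples lay below controls 2 and 3. The remaining ratio, Psmc3 to Psma1, was 62.6% ± 10.2 in controls and 60.6% ± 1.34 under epinephrine, with overlapping groups. Without control 1 its direction turned, from a mean of 56.7% in controls 2 and 3, with all epinephrine samples above both.

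Psme2, the β subunit of PA28, stood at 40.01, 57.8 and 58.9 CPM in controls and 50.4, 46.3 and 47.6 CPM under epinephrine. The epinephrine samples lay between control 1 and the other controls, so the log2 fold change was -0.12 ± 0.15 (FDR = 0.723) with all samples and -0.28 ± 0.064 (FDR = 0.00191) without control 1. In the 50-base stretches, 28.3% of Psme2 is shared with other loci, chiefly Psme2b, which had 0 counts. Psme3, which forms the nuclear PA28γ ring, stood at 133, 110 and 111 CPM against 104, 114 and 115 CPM (-0.085 ± 0.10, FDR = 0.719). Psme4, the PA200 activator, stood at 163, 174 and 157 CPM against 174, 172 and 167 CPM (0.055 ± 0.081, FDR = 0.772). Both overlapped between groups, and neither passed the test without control 1 (FDR = 0.931 and 0.588).

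Psme1 and Psmb10 are known for their part in antigen processing, and other genes of that function were examined as a list. The hepatocyte markers given above differed between the samples compared here, and their part in these values was not tested. Of 9 genes of antigen processing and its interferon control, among them Psmb8 and Psmb9, 0 passed the test (beside 2.02% of all genes higher and 0.612% lower), 2 had positive and 7 negative values, and the median log2 fold change was -0.28. Without control 1 the median was -0.15, with 4 positive and 5 negative values, 1 gene called higher (Tap1, beside 12.1% of all genes) and 2 lower (Psmb9 and Irf1, beside 9.46%). The transcription factor Irf1 stood at 38.1, 41.1 and 34.7 CPM in controls and 30.5, 31.2 and 32 CPM under epinephrine (-0.28 ± 0.093, FDR = 0.172; -0.28, FDR = 0.0101 without control 1). Its groups did not overlap. Over the 9 genes, the groups did not overlap for 4 that were lower, beside 13% of all genes tested. They did not overlap for 1 that was higher, beside 14.3%. That gene was B2m (log2 fold change 0.23, FDR = 0.347; 0.14 without control 1).

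The inhibitor acts on the free core, and the assembly chaperones act on precursors of the core or of the base of the cap. Psmg4, which helps the α ring to form, had the highest fold change of all members. It stood at 5.05, 8.12 and 6.63 CPM in controls and at 8.30, 9.13 and 8.79 CPM under epinephrine. Every epinephrine sample was above every control, by little in the case of control 2. Its log2 fold change was 0.40 ± 0.18 (95% interval 0.00069 to 0.80, unadjusted p = 0.0497 by edgeR, FDR = 0.291), and 0.24 ± 0.14 without control 1 (FDR = 0.235).

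Psmd9, a chaperone of the base, stood at 16.8, 21.1 and 24.3 CPM in controls and 24.8, 27.5 and 25.0 CPM under epinephrine. The groups did not overlap, although control 3 reached almost to the epinephrine samples (0.31 ± 0.14, FDR = 0.301; 0.18 without control 1). The antisense gene Gm26745 and other loci share 24.9% of its 50-base stretches. Psmf1, the inhibitor PI31, had the lowest value of the class, -0.24 ± 0.14 (FDR = 0.410), at 68.3, 48.3 and 56.1 CPM against 47.6, 44.5 and 53.7 CPM, with control 1 the highest sample and a value of -0.10 without it.

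Psmd5, another base chaperone, stood at 58.2, 79.8 and 79.0 CPM in controls and 72.1, 66.2 and 69.9 CPM under epinephrine. The epinephrine samples again lay between control 1 and the other controls, with a log2 fold change of -0.061 ± 0.13 (FDR = 0.846) that became -0.20 ± 0.059 (FDR = 0.0174) without control 1. Psmd10, Psmg1, Psmg2 and Psmg3 had values from 0.0021 (Psmd10) to 0.14 (Psmg1), with overlapping groups, and from -0.13 (Psmg3) to 0.036 (Psmg1) without control 1. Psmc3ip, kept apart, stood at 7.31, 11.9 and 16.1 CPM against 14.8, 14.2 and 14.9 CPM (log2 fold change 0.31, FDR = 0.546; 0.071 without control 1).

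Counted over all classes, the groups did not overlap for 6 members that were higher under epinephrine, Psmc4, Psmb5, Psmd9, Psmg4, Psmd4 and Psmd7, beside 14.3% of all genes tested. They did not overlap for 2 members that were lower, Psme1 and Psmb10, beside 13% of all genes tested. Both counts stand near or below those shares of the 44 members. On the FPKM scale 2 members were higher without overlap (Psmb5 and Psmc4), beside 12.3% of all genes, and 2 were lower (Psmb10 and Psme1), beside 13.9%. Compared with controls 2 and 3 alone, the epinephrine samples were all above for 8 members, beside 24.2% of all genes, and all below for 6 (Psme1, Psme2, Psma1, Psma6, Psmb10 and Psmd5), beside 23.2%. For the other 30 they overlapped.

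**Figure D5:**
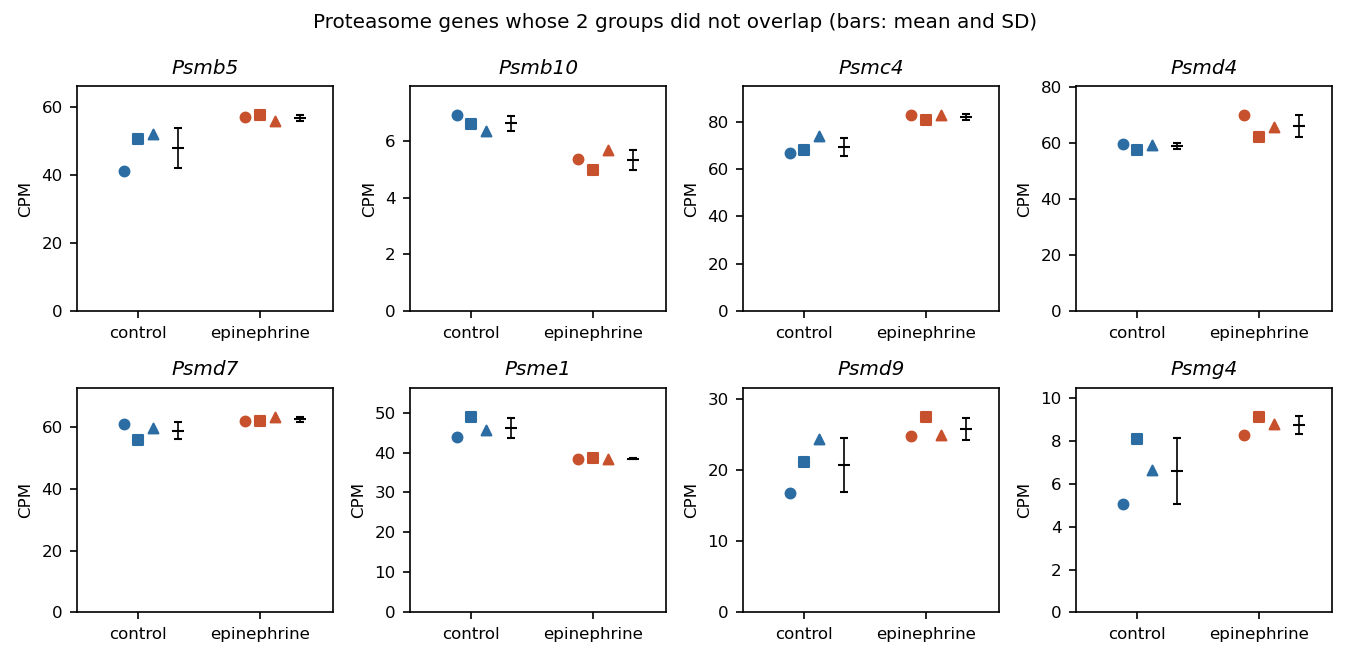
CPM in each sample of the 8 proteasome genes whose groups did not overlap, with axes starting at 0 and the mean and SD of each group of 3 as bars (blue, control; red, epinephrine; circle, square and triangle, samples 1, 2 and 3). Psme1 and Psmb10 are lower under epinephrine, the other 6 are higher, and the gaps between the groups are small relative to the levels.

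Partners of the proteasome that the symbol rule does not take were examined as a list of 28 genes, comprising further subunits, assembly and transcription factors, ubiquitin genes and shuttle proteins. Of these, 1 was higher (beside 2.02% of all genes) and 0 were lower (beside 0.612%) at FDR under 0.05, the median log2 fold change was 0.033, and 16 values were positive and 12 negative. Without control 1 the median was 0.042, and 6 were higher (beside 12.1%) and 0 lower (beside 9.46%), the 6 being Adrm1, Nfe2l1, Nploc4, Uba1, Vcp and Zfand2a. The gene that rose was Zfand2a, an arsenite-inducible protein that associates with the proteasome under proteotoxic stress. It stood at 30.1, 31.9 and 34.1 CPM in controls and 49.8, 46.7 and 53.6 CPM under epinephrine. All epinephrine samples were well above all controls, with a log2 fold change of 0.64 ± 0.094 (FDR = 0.0108), and of 0.60 (FDR = 5.87e-07) without control 1. The call was lost when control 2 (FDR = 0.0594) or epinephrine sample 1, 2 or 3 (FDR = 0.0877, 0.0651 and 0.0874) was left out, with the log2 fold change between 0.59 and 0.69.

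Nfe2l1, which encodes NRF1, stood at 249, 200 and 198 CPM in controls and 267, 257 and 264 CPM under epinephrine. Its groups did not overlap, control 1 being the closest to the epinephrine samples. Its log2 fold change was 0.28 ± 0.11 (unadjusted p = 0.0260 by edgeR, FDR = 0.215), and 0.40 ± 0.050 without control 1, where it passed the test (FDR = 7.97e-07). Ddi2, the protease that releases NRF1 from the endoplasmic reticulum, stood at 120, 94.9 and 87.6 CPM against 90.03, 88.7 and 88.2 CPM (-0.18 ± 0.12, FDR = 0.491). Without control 1 its value was -0.037 (FDR = 0.708). NRF1 is known to regulate proteasome genes. In the same fit of 5 samples, class medians were -0.0082 for the constitutive core, -0.0034 for the ATPases and 0.067 for lid and base. Among these classes, Psmc4 and Psmd4 were called higher and Psma6 lower. The part of Nfe2l1 in these values was not tested.

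Adrm1, a ubiquitin receptor of the cap, stood at 53.0, 45.5 and 50.8 CPM in controls and 53.8, 54.6 and 58.8 CPM under epinephrine (0.16 ± 0.091, FDR = 0.409), and was higher without control 1 (0.21, FDR = 0.0264). Pomp, the maturation factor of the core, stood at 35.3, 55.7 and 60.9 CPM against 64.7, 60.6 and 54.5 CPM (0.24 ± 0.18, FDR = 0.550; 0.043 without control 1). Sem1, the smallest lid subunit, had 0.13 ± 0.16 (FDR = 0.745) and -0.061 without control 1. Usp14, a deubiquitinase that docks on the cap, had -0.084 ± 0.084 (FDR = 0.660) and -0.13 without control 1. For Pomp, control 1 was the lowest sample and the groups overlapped among the other 5.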

How the data were processed

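Per the labels, 6 RNA-seq samples of MIN6 cells were compared, 3 controls and 3 after chronic epinephrine. The authors deposited 1 table of 22298 genes holding, for each sample, estimated counts and FPKM. Its genome build is GRCm38. The aligner, counter and annotation are not given in the sources used here. The deposited expected counts, of which 8.34% were not whole, were rounded. FPKM as deposited by the authors served for levels between genes and for ratios.

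Genes passing filterByExpr (12747) were scaled by TMM and tested with edgeR 4.0.16 (R 4.3.3), quasi-likelihood test, no covariate, Benjamini-Hochberg over all genes, FDR under 0.05. CPM are TMM-scaled. A count of 0 allows 3 counts, a limit that covers counting error only. The test was first checked on simulated data. Single values were compared by exact permutation of 20 splits, whose smallest p is 0.1. Alternatives used DESeq2 1.42.0, limma 3.58.1, other scalings and filters, a replicate block and each sample left out.

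The members, gene lists, motifs and tests were chosen with earlier results of these data known. Named were, in each class, the extremes, the smallest p, members of opposite sign, untested members and inducible members. Lengths, shared sequence and positions of genes come from the GENCODE annotation of GRCm38, and promoter windows from RefSeq (GRCm38.p6). Printed stretches were ended at the GENCODE gene start where that start fell within them, and stretches on 1 chromosome were not used here. Markers of exocrine pancreas were also examined, and their result is not reported here.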

Additional observations from a re-analysis of the deposited data

How the results depend on the processing

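The count of members at FDR under 0.05 was 0 in every setting run with all 6 samples and in those that left out control 2, control 3 or an epinephrine sample, except that an offset for GC content and transcript length, an alternative added once the data had been seen, gave 1 (Psme1, -0.29, FDR = 0.0451). Over single samples left out it ranged from 0 to 6, the 6 being without control 1. The members' median log2 fold change stayed between 0.032 and 0.16 except for -0.0045 without control 1. With 1 sample left out, the class medians ranged from -0.020 to 0.26 for core α, 0.019 to 0.30 for core β, -0.0034 to 0.16 for the ATPases, 0.067 to 0.097 for lid and base and -0.13 to -0.077 for the activators. For the inhibitor and chaperones they were -0.051 without control 1, 0.10 without control 2, 0.13 without control 3, -0.0011 without epinephrine sample 1 and 0.11 without epinephrine sample 3, and 0.018 scaled by library size only. With the offset the class medians were, in the same order, 0.068, 0.11, 0.046, 0.037, -0.17 and -0.0072. Members not overlapping numbered 4 with limma at either pseudocount, beside 12.3% of all genes higher and 13.9% lower in FPKM. Without control 1 they numbered 14, beside 24.2% of all genes higher and 23.2% lower. With any other sample left out they numbered 9 to 14, and the share of all genes was not computed there. Groups of 3 and 2 samples separate more readily than groups of 3 and 3. Partner genes called were 2 with the offset and 0 to 6 with 1 sample left out. All genes called numbered 729 by DESeq2, 178 with the replicate block, 1329 with the offset and 47 to 2798 with 1 sample left out. The labels do not say whether the replicate numbers pair the samples. Deviations of samples with the same number correlated at 0.050, 0.068 and -0.049, which with 3 samples a group cannot decide it. With the block 0 members and 1 partner gene were called. Of the 44 members, 20 kept the sign of their fold change in every setting and 24 did not, all of these 24 uncalled with all samples. The cause of these changes was not tested.

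With 1 sample left out, log2 fold changes that changed sign ranged from -0.13 to 0.24 for Psma1, -0.077 to 0.26 for Psma2, -0.020 to 0.29 for Psma3, -0.015 to 0.23 for Psma4, -0.17 to 0.12 for Psma6, -0.0016 to 0.33 for Psmb1, -0.046 to 0.095 for Psmb2, -0.034 to 0.30 for Psmb7, -0.049 to 0.059 for Psmc1, -0.0074 to 0.098 for Psmc2 and -0.037 to 0.20 for Psmc3. The ranges were -0.021 to 0.019 for Psmd1, -0.016 to 0.10 for Psmd2, -0.10 to 0.16 for Psmd3, -0.20 to 0.0097 for Psmd5, -0.047 to 0.16 for Psmd6, -0.088 to 0.089 for Psmd10, -0.049 to 0.088 for Psmd12, -0.055 to 0.16 for Psmd13, -0.14 to 0.010 for Psme3, -0.014 to 0.067 for Psmg2 and -0.13 to 0.17 for Psmg3. With the offset, values that changed sign were -0.013 for Psma1, -0.12 for Psma6, -0.12 for Psmb2, -0.072 for Psmc1, -0.0026 for Psmc5, -0.0056 for Psmd1, -0.033 for Psmd6, -0.0094 for Psmd7, -0.13 for Psmd10, -0.023 for Psmd12 and -0.091 for Psmg2. Scaled by library size only, they were -0.015 for Psma6, -0.0078 for Psmc1, -0.025 for Psmd1, -0.00053 for Psmd2, -0.021 for Psmd3 and -0.023 for Psmd10. By limma with a pseudocount of 1, they were -0.0058 for Psmc1, -0.024 for Psmd1, -0.00086 for Psmd2, -0.0033 for Psmd3, 0.068 for Psmd5 and -0.014 for Psmd10. With a pseudocount of 0.1, they were -0.0058 for Psmc1, -0.024 for Psmd1, -0.00083 for Psmd2, -0.0030 for Psmd3, 0.071 for Psmd5 and -0.015 for Psmd10. Psmd1 and Psmd10 were at -0.0055 and -0.0046 with the size factors of DESeq2, -0.00061 and -0.0012 with upper quartile scaling, -0.0055 and -0.0043 by DESeq2's Wald test, -0.0016 and -0.00068 with no filter, and -0.0014 and -0.00067 with at least 10 counts in every sample. With 3 samples a group and control 1 apart, differences of the size seen in most members cannot be resolved.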
